A study of Danio rerio with 12 samples.

Results

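Dorsal forerunner cells (DFCs) are a small group of cells that travel at the dorsal margin of the zebrafish gastrula, ahead of the organizer, and later build Kupffer's vesicle (KV), the ciliated organ that sets left-right asymmetry. The 4 control libraries of a 12-library RNA-seq series are described here, as a ranking of genes by abundance. They were chosen by their label alone and were not compared with the knockdown libraries. Each control library was made from the RNA of a single DFC cluster, dissected under fluorescence from a Tg(sox17:GFP) embryo that had received a standard control morpholino at the 1-cell stage and had developed at 29 °C to 90% epiboly, as the labels give the stage (a legend of the study's supplement gives an earlier epiboly stage). In this line the sox17 promoter drives GFP, and no cell sort followed the dissection, so neighbouring cells could be carried along with a cluster. The labels call the samples biological replicates, and nothing in them names a separate clutch or day for each.

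DFCs arise under Nodal signaling from surface epithelial cells near the margin, keep epithelial contacts with the enveloping layer while they migrate, and do not involute with the rest of the mesendoderm. They share the endodermal factors Sox32 and Sox17 with the endoderm, and switch on Foxj1a, the master regulator of motile cilia, before any cilium is visible. Later the cells round up into a lumen whose motile cilia drive a leftward flow, which is read at the margin of the KV through the loss of Dand5 and the spread of the Nodal ligand Southpaw. The lists below follow these steps: regulators, cilia parts by role, lumen genes, endoderm, adhesion, the signaling pathways and finally the markers of other tissues.

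The 4 libraries held 4487894, 4699956, 6148871 and 5797920 reads counted to genes. A read was found for between 15363 and 16153 genes per library. Of 31953 genes in the table, 15285 (47.8%) reached a mean level of 1 normalized count and are called detected here, and 13552 (42.4%) had no read in any of the 4 libraries. A normalized count is the number of reads of a gene divided by a size factor for its library. Reads were not divided by transcript length, so every rank below orders genes by reads: a long transcript gives more reads than a short one at the same number of molecules. Means are given ± SD over the 4 libraries (n = 4). Zero reads in all 4 libraries allow, for counting error only, up to 3 reads together, which is a mean of 0.998 normalized counts.

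The ranking repeated closely from cluster to cluster. Spearman's rho between 2 libraries, across detected genes, ranged from 0.978 to 0.988, as a description of genes that share a library, and 92 genes stood among the 100 most abundant of every library. Among the 6848 genes at 100 or more on average, the median coefficient of variation was 9.35%. Replicates 1 and 2 were nearest each other, and so were replicates 3 and 4: the squared difference in reads was 1.80 and 1.66 times the counting noise within these pairs and 4.06 to 5.54 times across them. These ratios are for genes with at least 20 reads in a pair. With at least 200 reads they were 2.09 and 1.87 within the pairs and 5.98 to 8.30 across them. The labels give 4 separate samples, and all 4 were kept as such. Whether the libraries of a pair share a clutch, a day or a preparation was not tested. With 1 group of 4 libraries an exact paired permutation test cannot give a p below 1 in 8, and none was made.

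Reads were concentrated in few genes. The 10 most abundant genes held 18.5% ± 0.27 of all normalized counts, the 100 most abundant 35.2% ± 0.26 and the 1000 most abundant 65.4% ± 0.43. The highest of all, ENSDARG00000080337, had no name in the files or the reference and took 8.96% of the counts by itself, with 635954, 623074, 636069 and 633432 normalized counts in replicates 1 to 4. The second was mt-co1, a mitochondrially encoded subunit of cytochrome c oxidase, at 122452 ± 7798. Next came eef1a1l1, which brings aminoacyl-tRNA to the ribosome, at 114883 ± 2641, and the long noncoding RNA malat1 at 84901 ± 9434. The rest of the first 10 were mt-co2 (73220.1), the unnamed ENSDARG00000082753 (71122), the chromatin protein gene hmga1a (63364), mt-co3 (50003), the RNA-binding protein gene khdrbs1a (48426) and the small heat shock protein gene hspb1 (47820.5). All 13 mitochondrially encoded protein genes were detected, from mt-co1 down to mt-atp8 at 283 ± 29.1, and together they held 4.69 to 4.85% of the counts in a library.

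Ranks 11 to 25 mixed genes of general cell functions and genes with no described role with regulators of forerunner cells. The first kinds were ybx1 (45371), a cold shock domain protein, mt-cyb (39863), zgc:92066 (39517), the nucleosome-binding protein gene hmgn1a (34461), si:ch211-152c2.3 (30865), the RNA-binding protein genes hnrnpa0l (29162) and cirbpb (28218), the chaperone gene hspa8 (26066), pnrc2 (23387) and slc25a5 (19019), which encodes the mitochondrial ADP/ATP carrier. Starmaker (stm), known as an otolith matrix protein, stood at rank 23 with 20797 ± 2046. The other 4 places were held by sox32 at rank 18, tbxta at 19, foxj1a at 22 and sox17 at 25. All 25 genes kept a place among the first 25 when any 1 library was left out.

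**Figure D1:**
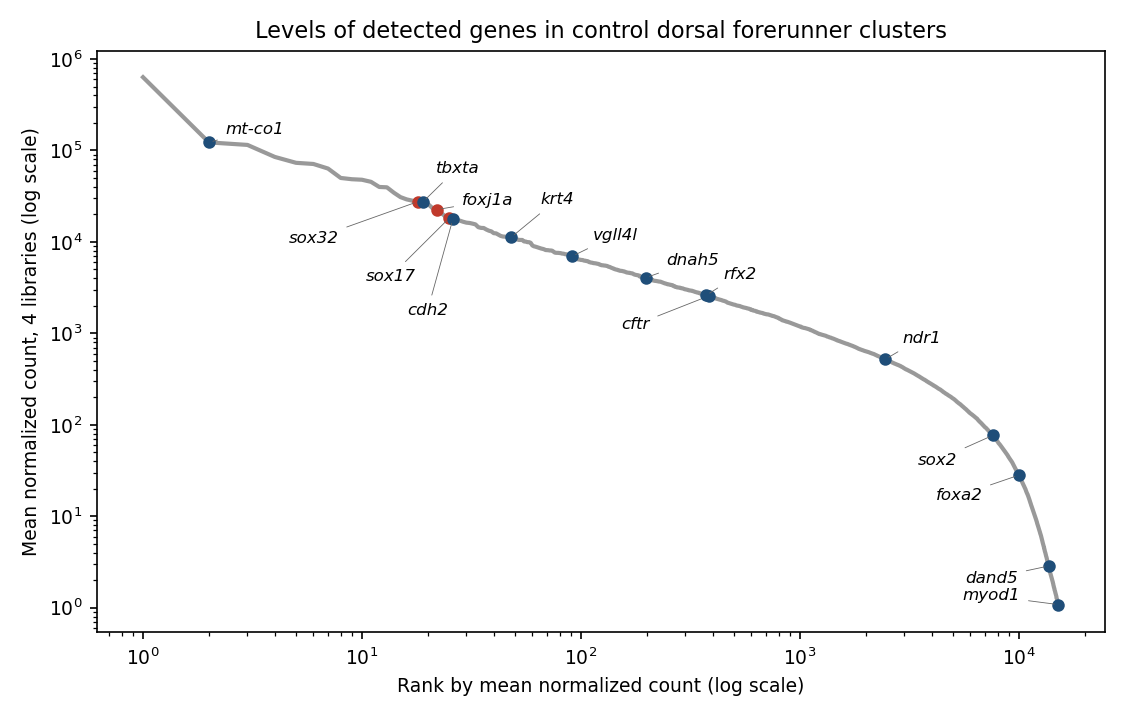
Mean normalized count over the 4 control libraries (vertical axis, log scale) against rank (horizontal axis, log scale) for the 15285 detected genes, with sox32, foxj1a and sox17 as red points and other genes of the text as blue points. The 3 forerunner markers sit between ranks 18 and 25, ndr1 at rank 2459, and dand5 and myod1 near the end of the curve.

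The labelled identity was checked first, with sox17, sox32 and foxj1a. sox32, the endodermal Sox factor upstream of sox17, had 27559, 27027, 27874 and 27686 normalized counts in replicates 1 to 4, a mean of 27536 ± 363. It was level across all 4 clusters, at rank 17 to 19 in each library. foxj1a had 23811, 23144, 21689 and 21541, a mean of 22546 ± 1111, and held rank 22 in every library. sox17 had 18501, 19129, 17483 and 17446, a mean of 18139.7 ± 821, and held rank 25 in every library. Since GFP under the sox17 promoter guided the dissection, its high level is a check of the tissue rather than a result. All 3 markers were therefore among the 25 genes with most reads in each of the 4 clusters, and the data did not go against the label.

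The other regulators of DFCs and of the KV were spread over a wider range. The T-box gene tbxta, also known as no tail, had 29956, 28315, 25979 and 25387 normalized counts, a mean of 27409 ± 2117, and was higher in replicates 1 and 2 than in 3 and 4. vgll4l, the TEAD cofactor expressed in these cells, had 7266, 7057, 6759.6 and 6694, a mean of 6944 ± 266 at rank 91. The second T-box gene, tbx16 (spadetail), had 5946, 5789, 4803 and 4674, a mean of 5303 ± 657 at rank 136. For tbx16 too, replicates 1 and 2 lay above replicates 3 and 4, with no overlap between the pairs.

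rfx2, a winged-helix factor that acts with Foxj1a on cilia genes, had 2704, 2712, 2535 and 2482 normalized counts, a mean of 2608 ± 117 at rank 374. cftr, the chloride channel that fills the vesicle with fluid, had 2791, 2669, 2473 and 2329, a mean of 2566 ± 205 at rank 384. Both were thus abundant well before a lumen exists. ndr1 (squint), the Nodal ligand, had 502, 525, 514 and 546, a mean of 522 ± 18.7 at rank 2459, and was the only member of this list outside the top 10% of detected genes. The top 10% comprised 1529 genes, the last of them at a mean of 817 normalized counts, and held 4.79% of all genes of the table and 5.65% of those with a name. Of the 9 regulators measured, 8 were in it.

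In the order sox32, tbxta, foxj1a, sox17, vgll4l, tbx16, rfx2, cftr and ndr1, not every step was clear of the spread between clusters. sox32 lay above tbxta in only 2 of 4 libraries, and rfx2 above cftr in 3 of 4. Each of the other 6 steps held in all 4 libraries. The order is one of reads, and lengths could not be taken into account.

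**Figure D2:**
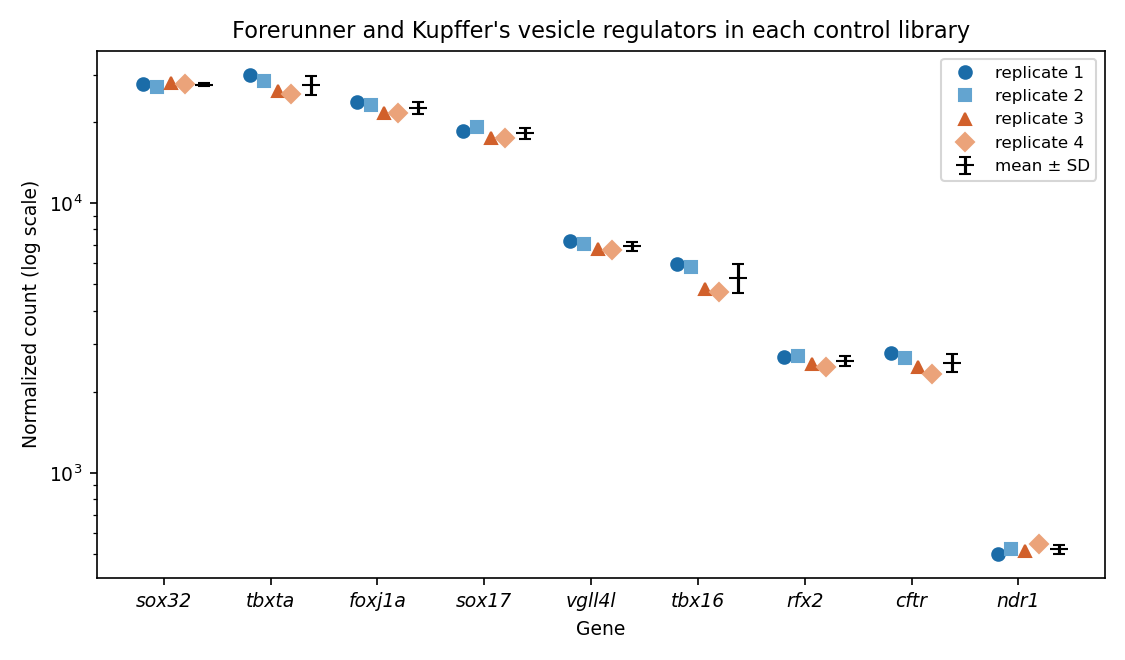
Normalized counts (vertical axis, log scale) of the 9 regulators in each of the 4 control libraries, with a symbol per replicate and a bar for the mean ± SD. sox32, tbxta, foxj1a and sox17 lie between 17446 and 29956 in every library, vgll4l and tbx16 between 4674 and 7266, and ndr1 between 502 and 546.

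Most genes for cilia were read in these clusters at a stage when the cells have not yet formed a vesicle. The 9 lists had 179 entries, and 161 genes were measured. Of these, 149 were detected (92.5%, against 54.2% of all genes with a name) and 127 lay above the median of detected genes. In the top 10% were 51 (31.7%, against 5.65%). Their median was 415 normalized counts, against 75.1 over all detected genes and 2.25 over all genes with a name. They held 1.80 to 1.82% of the counts in each library. Of the 12 that were not detected, 4 had a mean under 1 and 8 had no read (4.97% of the 161, against 35.7% of all genes with a name).

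Among the ciliary transcription factors, foxj1a stood far above the rest. rfx2 and rfx1b (1499 ± 83.2), both of the Rfx family, followed, and e2f5 (1353 ± 77.4), an E2F factor known from multiciliated cells, was the fourth in the top 10% of 12 measured. foxj1b, the paralog of foxj1a, had 270.0 ± 43.3, and gmnc, the geminin relative known for multiciliogenesis, had 287 ± 24.98. The lowest were myb (1.14 ± 1.59), another factor of multiciliated cells, and rfx4 (1.04 ± 1.44), each with no read in 2 of 4 clusters.

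The outer dynein arms, which power the ciliary beat, had 5 of 13 genes in the top 10%. dnah5, the outer arm heavy chain, had 4339, 4265, 3812 and 3816 normalized counts, a mean of 4058 ± 283 at rank 198. It was the most abundant member of the cilia lists after foxj1a. It encodes one of the longest proteins of the cell, so its reads cannot be set against those of short genes. The light chain genes dnal1 (3214 ± 306) and dnal4b (1413 ± 88.1) followed. The intermediate chain gene dnai2b had 902 ± 74.3, whereas its paralog dnai2a and the outer arm gene nme8 had no read in any cluster. dnah9, the other outer arm heavy chain known from airway cilia in mammals, had 26.7 ± 6.17, while a gene named dnah9l had 337 ± 21.7. dnah11, a heavy chain known for left-right patterning in the mouse, had 428 ± 44.9, and another gene of that name had 488 ± 40.4.

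The inner arm list had a median of 374, against 255 for the outer arms, and none of its genes reached the level of dnah5. dnah7 had 1204 ± 98.5, dnah7l 965 ± 128 and dnah10 774 ± 99.4, so that 2 of 10 inner arm genes were in the top 10%, and dnah1 (40.1 ± 16.5) and dnah3 (1.83 ± 1.91) were lowest. All 10 were detected.

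The factors that assemble dynein arms in the cytoplasm, and those that dock and regulate them on the axoneme, were the list with the largest share in the top 10% among the 9 cilia lists. Of 27 genes, 15 were there (55.6%) and 25 were detected, with a median of 956. cfap298 (kurly), needed for dynein arms and for planar polarity of cilia, had 3554, 3377, 3565 and 3561 normalized counts, a mean of 3514 ± 91.5. daw1 (1998 ± 32.7) and ccdc103 (1913 ± 35.99), which bring and attach dynein arms, came next, and odad3, a docking complex gene, had 1767 ± 154. Values differed little between clusters: those of ccdc103 ran from 1871 to 1959. dnaaf1 (1097), dnaaf3 (1196), dnaaf4 (1099.8) and zmynd10 (917), all assembly factors, were also in the top 10%. dnaaf2 (kintoun) and iqcg were the exceptions, with no read in any library.

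Structural parts of the axoneme were present at a range of levels. In the doublet microtubules, 8 of 19 genes were in the top 10%, led by cfap52 (2649 ± 75.5), mns1 (2525 ± 65.3) and ribc2 (2376 ± 89.5), all proteins of the microtubule lumen. cfap53, a gene known for laterality in human and fish, had 1711 ± 35.04. The tektin gene tekt1 had 625 ± 26.4 and tekt3 had 4.07 ± 2.34, while tekt2 had no read. In the central pair and radial spokes, 3 of 19 were in the top 10%: spag6 (2340.4 ± 85.2) of the central pair and lrrc23 (1495 ± 43.1) and rsph1 (830.2 ± 46.7) of the spokes. rsph9, a spoke head gene, had 165 ± 31.4, spef2 had 42.5 ± 11.3 and spef1 no read. The central pair gene hydin, which is very long, had 439 ± 47.7.

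Intraflagellar transport carries these parts into the cilium, and 27 of its 29 genes were detected, 7 of them in the top 10%. ift140, of the retrograde complex, was highest with 2011 ± 122, followed by ift56 (1898 ± 87.96) and ift57 (1391 ± 123) of the anterograde complex. ift88, the best known anterograde gene, had 503 ± 43.2. Of the kinesin-II motor, kif3b had 799.7 ± 46.1 and kif3a 108 ± 11.4, and the kif3b values lay above those of kif3a in each library. ift27 had no read. In the BBSome list, bbs7 (1089.9 ± 98.4) and bbs12 (875 ± 138) were in the top 10% of 12 genes, arl6, which recruits the complex, had 440.2 ± 16.8, and bbs10 was at 0.592 ± 1.18 and ttc8 at 0. In the transition zone at the ciliary base, 5 of 20 genes were in the top 10%, led by nphp4 (1702 ± 202), tmem67 (1549.7 ± 63.7) and b9d2 (1208 ± 57.4), while tmem237a had 0.687 ± 0.818.

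**Figure D3:**
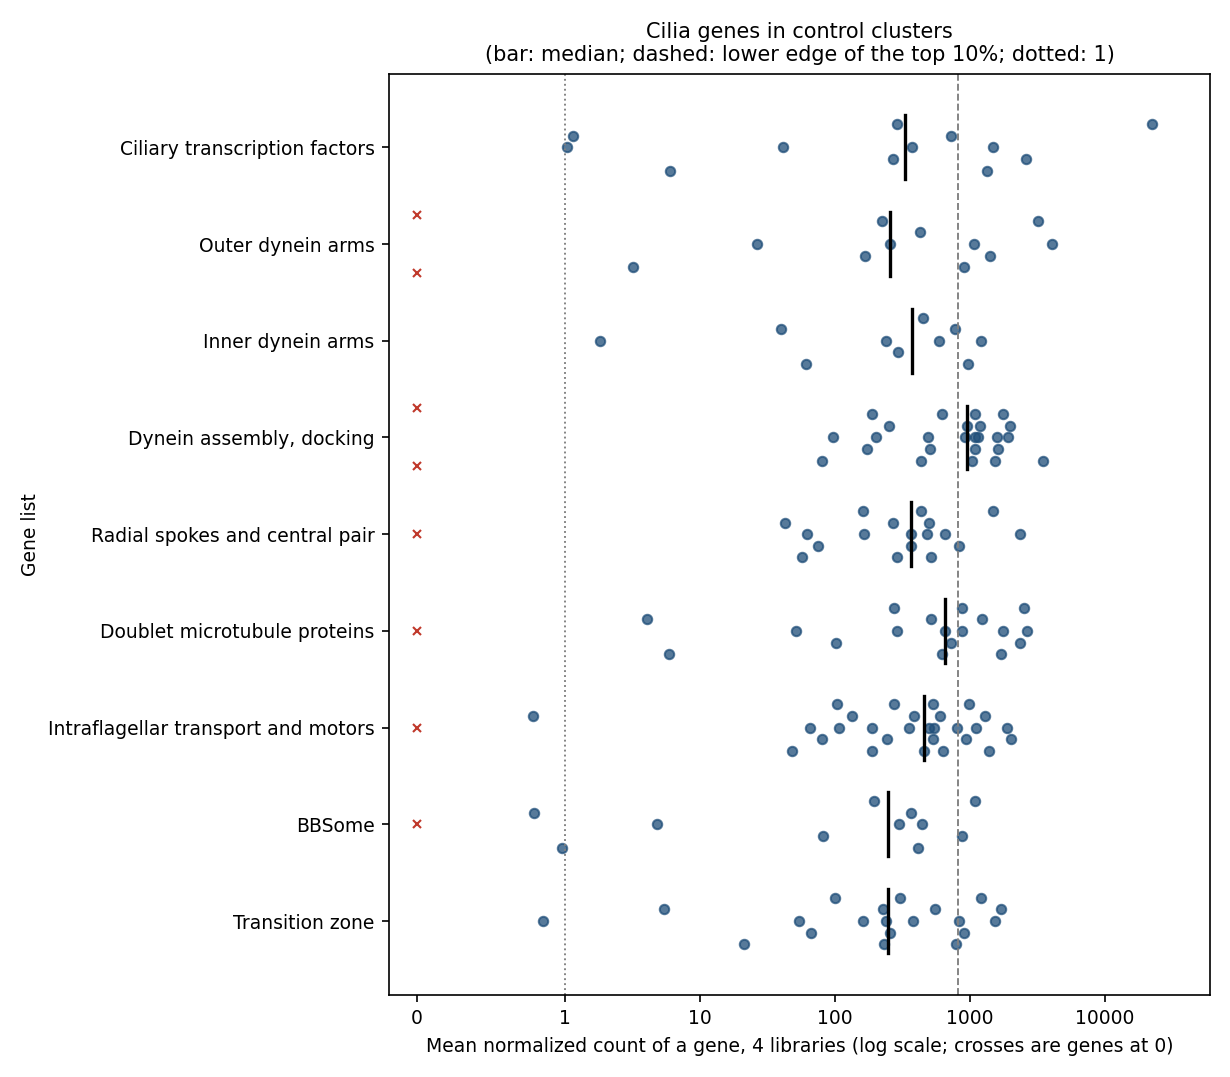
Mean normalized count over the 4 control libraries (horizontal axis, log scale) of each gene of 9 cilia lists, with dots for genes with a read, crosses for genes at 0, and a bar at the median of each list. The dynein assembly list has 15 of 27 genes beyond the dashed line at 817, the lower edge of the top 10%, and 8 crosses stand over all lists.

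In the list for the lumen and the left-right readout, cftr and ion pump genes were abundant, while dand5, galnt11 and spaw were at or near 0. Besides cftr, the top 10% held atp6ap1b (2258 ± 144), an accessory subunit of the proton pump needed for KV cilia, and the sodium-potassium pump genes atp1b1a (1974 ± 66.9) and atp1a1a.1 (1962 ± 160.3). The cation channel gene pkd2, which senses flow, had 149, 148, 139.8 and 146 normalized counts, a mean of 146 ± 4.11. gdf3, the maternal partner of Nodal ligands, had 172 ± 22.9. dand5 (charon), the Nodal antagonist of the KV margin, had only 6.48, 1.53, 2.25 and 1.18, and galnt11, a glycosyltransferase known for cilia type in the frog, had 0, 0, 3.38 and 1.18. spaw, the ligand that later spreads on the left, had no read. So 4 of 9 genes of this list (44.4%, against 5.65% of all genes with a name) were in the top 10% and 1 was at 0. The transporter genes slc12a2 and slc26a6 each matched several genes and were not measured.

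The endoderm list split into a few very abundant genes and many rare ones. Of 17 genes, 5 (29.4%, against 5.65% of all genes with a name) were in the top 10%. These 5 include sox32 and sox17, which served above as a check of the tissue. Detected were 14 (82.4%, against 54.2%), and none was at 0, against 35.7%. The median was 30.2 normalized counts. Apart from sox32 and sox17, the abundant members were cxcr4a (2826 ± 159), the chemokine receptor that tethers endoderm to mesoderm, foxa3 (1526 ± 32.7), a forkhead factor of endoderm and axial mesoderm, and pou5f3 (1214 ± 21.1), the pluripotency factor that works with Sox32. gata6 (308 ± 17.8) and gata5 (239 ± 36.5), which act upstream of sox32 in the endoderm, were intermediate.

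Other genes of endoderm specification were scarce. foxa2 had 19.4, 25.9, 30.4 and 36.7 normalized counts, a mean of 28.1 ± 7.29 at rank 10005. mixl1, which works beside gata5 in early endoderm, had 4.86, 1.53, 2.25 and 14.2. eomesa, a maternal T-box factor, had 6.62 ± 4.38 and gata4 had 1.18 ± 2.37. foxa1 (0.983), nkx2.7 (0.282) and mxtx2 (0.282) had reads but a mean under 1, and so are not called detected. The list thus ran from 0.282 to 27536 normalized counts.

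Classical cadherins and their partners bind cells of a cluster to each other. cdh2 (N-cadherin) had 18331, 18406, 16883 and 16760.3 normalized counts, a mean of 17595 ± 895 at rank 26, next to sox17. cdh6 had 6662, 6630.1, 5948 and 6097, a mean of 6334 ± 365 at rank 101. cdh1 (E-cadherin), the main cadherin of the gastrula's epithelia, had 966, 1049.8, 876 and 881, a mean of 943 ± 82.3, and each of its values lay below every value of cdh2 and cdh6. Of their cytoplasmic partners, plakoglobin (jupa) had 5853 ± 126, p120-catenin (ctnnd1) 4815 ± 274, alpha-catenin (ctnna1) 1306 ± 79.7 and beta-catenin ctnnb1 182 ± 22.8. The second beta-catenin gene, ctnnb2, had 3.19 ± 2.61. The list had 6 of 20 genes (30%, against 5.65% of all genes with a name) in the top 10%. The vessel cadherin gene cdh5 (2.51 ± 2.41), pcdh8 (0.296 ± 0.592) and cdh15 (0) were among the lowest.

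Junction genes were the other abundant adhesion group, with 11 of 45 (24.4%, against 5.65% of all genes with a name) in the top 10%. Detected were 34 (75.6%, against 54.2%). The connexin gene cx43.4, needed for the KV, had 18392, 17824, 16338 and 15753 normalized counts, a mean of 17077 ± 1237 at rank 28. f11r.1 (junctional adhesion molecule A) had 10512 ± 607, and the claudin genes cldne and cldn7b had 5828 ± 349 and 4174 ± 343. cldn5a, a claudin known for the KV lumen, had 1909.8 ± 54.2, oclna (occludin) 2054 ± 127 and epcam 2269 ± 129. The apical scaffold genes tjp2a (2291 ± 111) and tjp1a (551 ± 51.8) and the lateral polarity gene llgl2 (2003 ± 131) were also well represented. Against cx43.4, the other connexin genes measured were scarce, with gjb8 at 5.71 ± 1.34, gja1b at 0.687 ± 0.818 and cx35.4 at 0.296 ± 0.592. cldn7a, cldn19 and pard6b had no read. cldne is also a marker of the enveloping layer.

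Matrix and integrin genes were lower, with a median of 52.96. Of 38 genes, 29 were detected (76.3%, against 54.2% of all genes with a name) and 5 had no read (13.2%, against 35.7%). Only 1 (2.63%, against 5.65%) was in the top 10%. The exception was fn1a, which encodes fibronectin, with 1308, 1274, 1109 and 1149 normalized counts, a mean of 1210.0 ± 95.99. itgb5 (712 ± 54.1), an integrin beta chain, and lamb1a (481 ± 14.1), a laminin chain, followed. itga5 and itgav, alpha chains of fibronectin receptors, had 219.7 ± 30.8 and 58.7 ± 12.1. lama2 and lama4, laminin alpha chains of muscle and vessels, were at 0. Over the 3 adhesion lists, 18 of 103 genes (17.5%, against 5.65%) were in the top 10% and 9 (8.74%, against 35.7%) were at 0.

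In the signaling lists, 214 genes were measured, with a median of 73.8. Of these, 30 were in the top 10%, 173 (80.8%) were detected and 30 were at 0. Among all genes with a name, 5.65% were in the top 10%, 54.2% were detected and 35.7% were at 0. Shares in the top 10% were near that 5.65% in the Nodal (5.56%), Hedgehog (5.88%), migration (6.67%) and bone morphogenetic protein (7.41%) lists. They were higher in the Notch (12.9%), Wnt (16.98%), Hippo (21.7%) and fibroblast growth factor (23.3%) lists. Fibroblast growth factor (FGF) genes, which act on DFC clustering and on ciliogenesis, had 7 of 30 in the top 10%. flrt3, a transmembrane protein that modulates FGF signaling and cadherin adhesion, had 15477, 15235, 13772 and 13447 normalized counts, a mean of 14483 ± 1022 at rank 34. Of the receptors, fgfr1a had 1209.8 ± 44.03 and fgfr4 667 ± 67.3, and fgfr3 1.905 ± 1.596. Of the ligands, fgf8a had 667 ± 94.96, fgf1a 491 ± 83.7 and fgf3 0.888 ± 1.78, and fgf4, fgf8b, fgf10b and fgf20a had no read. cnpy1, known to promote Fgf receptor signaling in DFCs, had 566 ± 28.1.

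Genes that FGF signaling is known to switch on were abundant. etv5b, an ETS factor, had 3949, 3716, 3660.5 and 3367 normalized counts, a mean of 3673 ± 239 at rank 231. The feedback inhibitors il17rd (sef) and dusp6 had 3176 ± 159 and 2067 ± 68.99, and etv4 had 1890.3 ± 82.1. Sprouty genes, which are feedback inhibitors too, did not follow as a group: spry2 had 557 ± 8.47, spry4 9.03 ± 6.28 and spry1 1.24 ± 0.9402. The abundant targets were level across clusters, with dusp6 between 1972 and 2127.

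In the Nodal pathway, 1 of 18 genes was in the top 10%. It was acvr1ba, a type I receptor, with 4637, 4506, 4122 and 3864 normalized counts, a mean of 4282 ± 354. ndr1 was next, followed by smad2 (342 ± 12.8), the signal transducer, and tdgf1 (one-eyed pinhead, 196 ± 17.7), the co-receptor. The other ligand made at this stage, ndr2 (cyclops), had 3.24, 0, 1.13 and 2.37. The feedback antagonist lft1 had 46.9, 38.1, 52.99 and 54.5. Its relative lft2 had 0, 1.53, 2.25 and 1.18, no more than a few reads in any cluster. foxh1, the DNA-binding partner of Smad2, had 14.2 ± 9.01. acvr2ab (0.282 ± 0.564), spaw (0) and acvr1c (0) were lowest.

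In the bone morphogenetic protein pathway, the type I receptor genes bmpr1aa (3173 ± 344) and acvr1l (1372 ± 21.9) were in the top 10%, as 2 of 27. The ligands bmp2b and bmp4 had 807 ± 62.96 and 683 ± 131, close to the dorsal antagonist chrd (chordin) with 655 ± 32.7. bmp4 varied more than the others, from 522 in replicate 4 to 827 in replicate 2. bmp7a had 4.54 ± 2.47, and the antagonist szl (sizzled), bmp2a, bmpr1bb, bmpr2b and bambib had no read.

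Wnt and planar cell polarity genes, which guide convergence and tilt the KV cilia, had 9 of 53 in the top 10%. wnt11 (silberblick) had 3507, 3374, 2888 and 2954 normalized counts, a mean of 3181 ± 306 at rank 276. vangl2 (trilobite), a core polarity protein, had 3134, 3092, 2888 and 2915, a mean of 3007 ± 124. The receptors fzd7a (1845 ± 28.6), fzd7b (1665 ± 98.6) and fzd10 (1317 ± 79.2), the polarity genes prickle1b (1686 ± 125) and celsr1a (1468 ± 99.03) and the secreted antagonist sfrp1a (1531 ± 63.3) were in the same range. wnt5b had 71.9 ± 6.81, and axin2 and lef1, target and effector of the beta-catenin branch, 607 ± 47.5 and 288 ± 28.6. The paralog vangl1, the ligands wnt11r and wnt8b and the receptors fzd4, fzd5, fzd6 and fzd9a had no read, and dkk1b had 1.26 ± 0.984.

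Of 31 Notch genes, 29 were detected and 4 were in the top 10%. notch1a had 3701, 3911, 3658 and 3699 normalized counts, a mean of 3742 ± 114, while notch1b and notch3 had 322 ± 50.8 and 323 ± 34.9 and notch2 7.695 ± 4.84. dla (deltaA), the ligand known to act on KV cilia length, had 2155, 2057, 1658 and 1713, a mean of 1896 ± 247, higher in replicates 1 and 2 than in 3 and 4. The other Delta genes were far lower, with 63.9 ± 14.4 for dlb, 23.7 ± 9.89 for dld and 18.9 ± 8.399 for dlc. mib1, the ligase that activates Delta, had 1704 ± 176 and adam10a, the protease that cleaves Notch, 1369 ± 88.6. Hairy-related target genes ran from her7 (584 ± 36.6) and hey1 (513 ± 50.4) down to her6 (2.195 ± 2.41) and hey2 (0.296 ± 0.592), and adam10b was at 0.

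Genes of the Hedgehog list ran from the top 10% to 0 reads. gli3, the factor that acts mainly as a repressor, had 1096, 1103, 959 and 983 normalized counts, a mean of 1035 ± 74.9, the single gene of 17 in the top 10%. smo (smoothened) had 758, 737, 578 and 528, a mean of 650.3 ± 114, the surface protein gene boc had 577 ± 107, and hhip, which binds the ligand and is itself a known target of the pathway, 439 ± 48.8. Ligand genes were shhb (259.5 ± 33.96), shha (61.3 ± 6.81) and ihha (52.7 ± 7.47), with ihhb and dhh at 0. Another target, ptch1, had 1.62, 10.7, 0 and 1.18. The target gli1 had 8.09, 7.63, 10.1 and 13.03. At these counts the differences between clusters in ptch1 and gli1 rest on a few reads each.

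Of 23 Hippo pathway genes, 5 were in the top 10% and 4 were at 0. Next to vgll4l, the upstream regulator nf2b (merlin) had 2751 ± 193, the co-activator yap1 had 2391, 2289, 2122 and 2200.1 normalized counts, a mean of 2250.4 ± 116, and the kinase adaptor mob1a had 2011 ± 59.3. amotl2a, which holds Yap in the cytoplasm and is known for the size of the KV, had 912 ± 43.9. The kinases lats1 and lats2 had 128 ± 11.6 and 157 ± 31.1. wwtr1, which encodes the second co-activator Taz, had no read. The paper counts Taz, Tead1a and Tead3a, but not Tead3b, among the factors expressed in the KV, its progenitors or both. By in situ hybridization it shows taz in the gastrula, and tead3a only at a later stage than that of these clusters. Why wwtr1 had no read, and tead3a (below) next to none, was not tested. The DNA-binding partners were modest: tead1a had 89.04, 73.2, 56.4 and 76.97, tead3b a mean of 74.00 ± 18.96, tead1b 0.564 ± 1.13 and tead3a 0.381 ± 0.763. The relatives of vgll4l, vgll4b and vgll4a, had 21.7 ± 4.63 and 8.93 ± 6.604, and vgll2a none. ctgfa and cyr61, known Yap targets in mammalian cells, were at 0, and ankrd1a, another, had 1 read in the 4 libraries.

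Among receptors and ligands for migration, cxcr4a was the 1 of 15 in the top 10%. The sphingosine receptor gene s1pr1 had 709.7 ± 48.1, the chemokine scavenger gene ackr3b 481 ± 32.1 and the apelin receptor gene aplnrb 473 ± 46.8. Their ligand genes were cxcl12b (203 ± 19.2), cxcl12a (138 ± 21.5) and apela (226 ± 10.5), while apln, s1pr2, pdgfaa and pdgfab had no read.

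**Figure D4:**
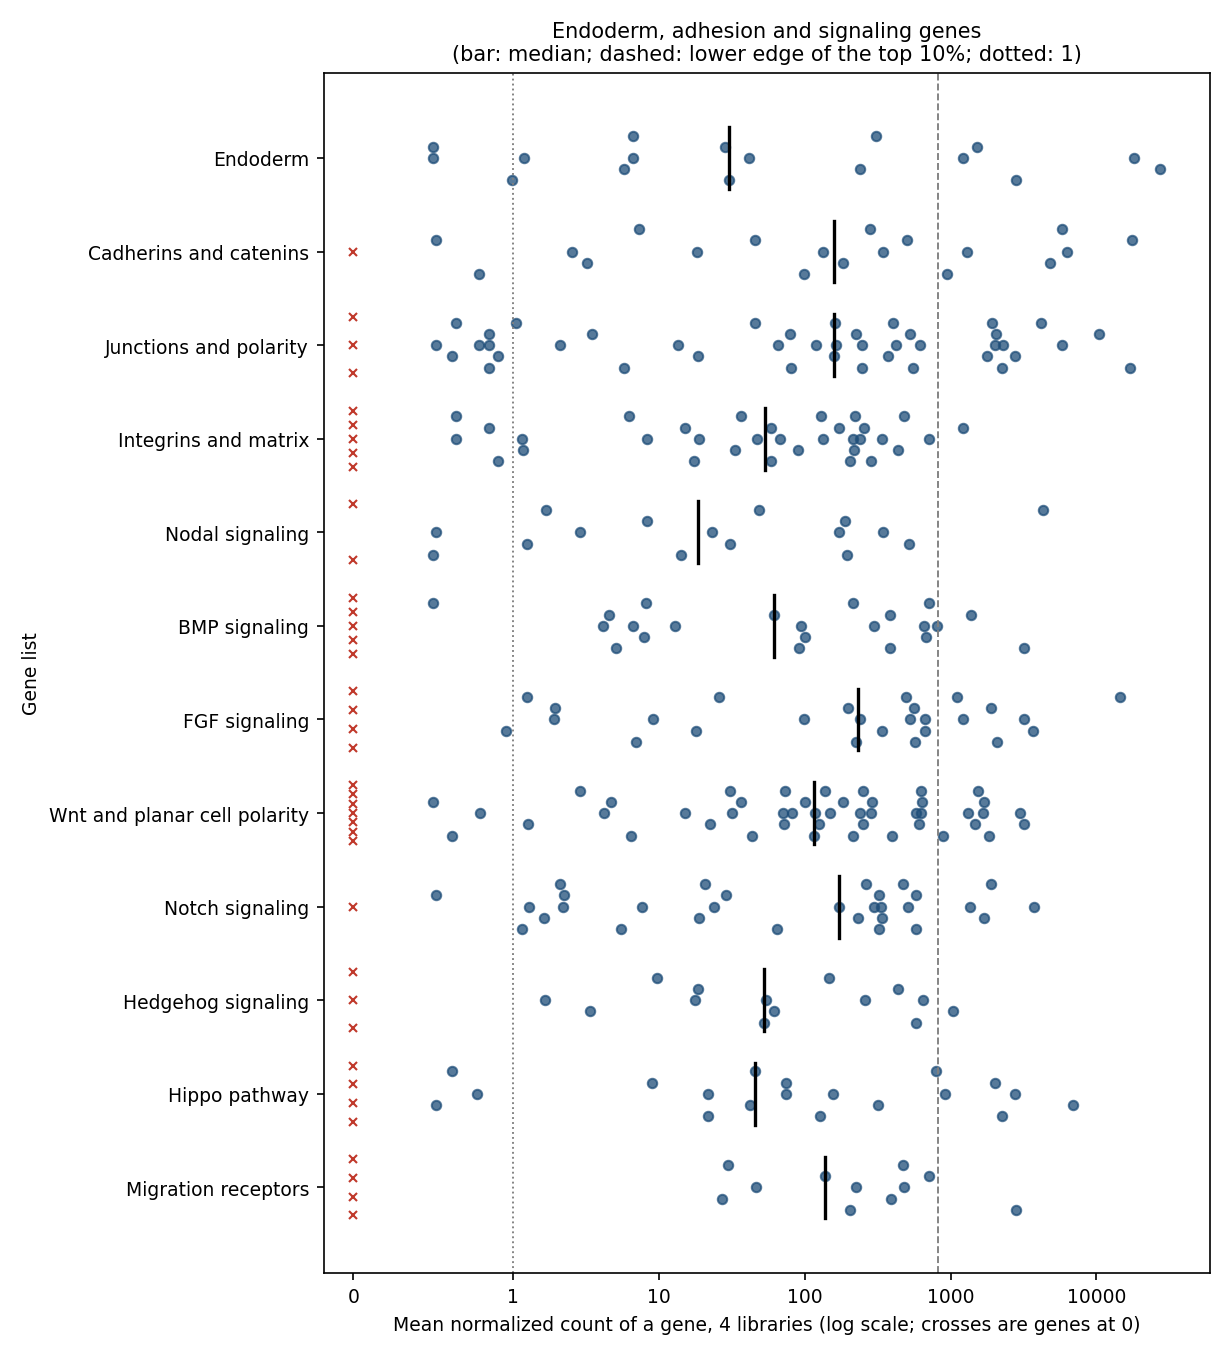
Mean normalized count over the 4 control libraries (horizontal axis, log scale) of each gene of the endoderm, 3 adhesion and 8 signaling lists, with crosses for genes at 0 and a bar at the median of each list. The endoderm list runs from 0.282 to 27536 with a gap between pou5f3 at 1214 and gata6 at 308, and 30 crosses fall in the signaling lists.

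Markers of other tissues were counted next, since the clusters were cut out by hand. In 10 lists 204 genes were measured. Of these, 15 (7.35%) were in the top 10%, against 5.65% of all genes with a name. These 15 include tbxta, tbx16, foxa3 and cldne, which also stand in lists above. Detected were 134 (65.7%, against 54.2% of all genes with a name). No read in any control library was found for 42 (20.6%, against 35.7%). The median of the 204 was 8.33 normalized counts, against 75.1 over detected genes and 2.25 over genes with a name. In a bulk sample, a few cells with much of an RNA and many cells with little of it cannot be told apart.

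The enveloping layer, the outer epithelium from which DFCs derive and to which they stay attached, was the list with the largest share of reads of these 10. The keratin genes krt4, krt18a.1, krt8 and krt5 had 11207 ± 176, 8001 ± 147, 5509 ± 220.2 and 5341 ± 253, and cldne was listed above. In the 4 clusters krt4 had 11075, 11049, 11417 and 11286. Of the 21 genes of the list, 18 (85.7%, against 54.2% of all genes with a name) were detected. In the top 10% were 5 (23.8%, against 5.65%). The list as a whole held 0.550, 0.543, 0.581 and 0.577% of the counts in replicates 1 to 4, more in replicates 3 and 4 than in 1 and 2. grhl3, a factor of this layer, had 98.8, 90.03, 87.9 and 68.7, a mean of 86.3 ± 12.7, and cyt1 378 ± 84.8. krt18b, agr2 and tmprss13a were at 0. Keratins are near copies of one another and may share reads. The part of enveloping layer cells in these values was not tested.

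The yolk syncytial layer lies below the cluster. apoeb, an apolipoprotein gene, had 10053, 9879, 10307 and 10096 normalized counts, a mean of 10084 ± 176 at rank 56. apoc1 (2097 ± 266), mttp (1171 ± 73.3) and apoa1b (843 ± 85.8), all of lipoprotein assembly, were in the top 10% as well. apoc1 was lower in replicates 1 and 2 than in replicates 3 and 4. The layer's defining factor mxtx1 had 22.7 ± 4.99, hnf4a 87.2 ± 23.2 and mxtx2 0.282 ± 0.564. Of the 20 genes, 15 (75%, against 54.2% of all genes with a name) were detected and apoea was at 0. In the top 10% were 4 (20%, against 5.65%). The list held 0.206 to 0.229% of the counts. The part of yolk layer RNA in these values was not tested.

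No gene of the epidermal or neural ectoderm was in the top 10%, which held 5.65% of all genes with a name. Most were still detected: 80% of 15 epidermal and 70% of 30 neural genes, against 54.2% of all genes with a name. At 0 were 6.67% and 3.33%, against 35.7%. vox, a ventral repressor, had 711 ± 79.9, gata3 537 ± 42.1 and tp63, the keratinocyte factor, 293 ± 44.8. foxi3a (0.8597 ± 1.08) and krtt1c19e (0.282 ± 0.564) had a mean under 1 and foxi3b was at 0. Among 30 neural genes, six3a of the forebrain had 583 ± 106, zic2b 465 ± 43.9 and sox1b 356 ± 39.8. six3a was higher in replicates 1 and 2, at 651, 696, 493 and 491 in order. sox3 and sox2, general neural factors, had 188 ± 29.6 and 76.5 ± 24.5, and otx2, of the anterior brain, had reads in a single cluster (3.24, 0, 0 and 0). pax2a and egr2b had 0.296 ± 0.592 and 0.296 ± 0.592, and neurod4 none.

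Mesoderm lists were split by genes that are also known from the margin and DFCs. In the axial list, tbxta and foxa3 were high, as above, and noto (floating head), a notochord factor, had 3615, 3612, 3821 and 3792 normalized counts, a mean of 3709.8 ± 112 at rank 224. chrd had 672, 619.5, 692 and 638 and was read at much the same level in all 4 clusters. The organizer gene gsc (goosecoid) had 1.62, 0, 1.13 and 0, and the notochord collagens col2a1a and col9a1a had 1.17 ± 1.47 and 0.663 ± 0.783, with the hatching enzyme genes he1a and he1b at 0. In the paraxial list, cdx4, a tail bud factor, had 7554, 7529, 7330.0 and 7343, a mean of 7439 ± 119 at rank 83. Besides tbx16, msgn1 (851 ± 35.5) was in the top 10% too. The muscle factor myf5 had 6.48, 6.104, 5.64 and 2.37. myod1, which acts with it, had 1.62, 1.53, 0 and 1.18, tbx6 had 2.05 ± 0.909, and mespab and mespbb had no read.

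Of 22 markers of blood, vessel and heart, none was in the top 10%, against 5.65% of all genes with a name. Detected were 11 (50%, against 54.2%). At 0 were 9 (40.9%, against 35.7%): tal1, fli1a, hbae1.1, hbbe3, hand2, myl7, runx1, mpx and mpeg1.1. The highest were lcp1 (273 ± 19.9), an actin-bundling protein of leukocytes, kdrl (162 ± 9.71), a vessel receptor, and lmo2 (142 ± 17.4). The vessel factor etv2 had 147, 137, 114 and 133. It was read in every cluster, and 5 of the 22 genes lay above the median of detected genes.

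In the germ cell list, ddx4 (vasa) had 767, 661, 628 and 594 normalized counts, a mean of 663 ± 74.9 at rank 1909, the only one of 14 above the median of detected genes. piwil2 (64.3 ± 17.00) and piwil1 (45.6 ± 9.29) were next, and dazl (0.701 ± 0.828) and tdrd7a (0.282 ± 0.564) were under 1, with nanos3, dnd1 and hook2 at 0. The neural crest and pigment list was the emptiest, with 8 of 15 (53.3%, against 35.7% of all genes with a name) at 0. These were foxd3, tfap2b, mitfa, dct, pmelb, tyrp1b, snai1b and ednrba, and no gene of the list was above the median of detected genes. Its highest genes were pax3a (35.3 ± 6.42), sox9b (29.5 ± 12.6) and tyr (18.2 ± 2.79), and sox10 had 12.5 ± 3.88. Of 30 genes of organs that form later, 12 were at 0 (40%, against 35.7% of all genes with a name), among them ins (insulin), the muscle genes mylpfa and tnnt3a, the lens gene crygm2d1 and the pituitary genes prl and gh1. tfa (transferrin, 602 ± 20.2), mpz (myelin protein zero, 458 ± 11.6) and prss1 (trypsin, 245 ± 12.3) were its highest, with tfa at 602, 574, 611 and 620.5 in the 4 clusters.

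**Figure D5:**
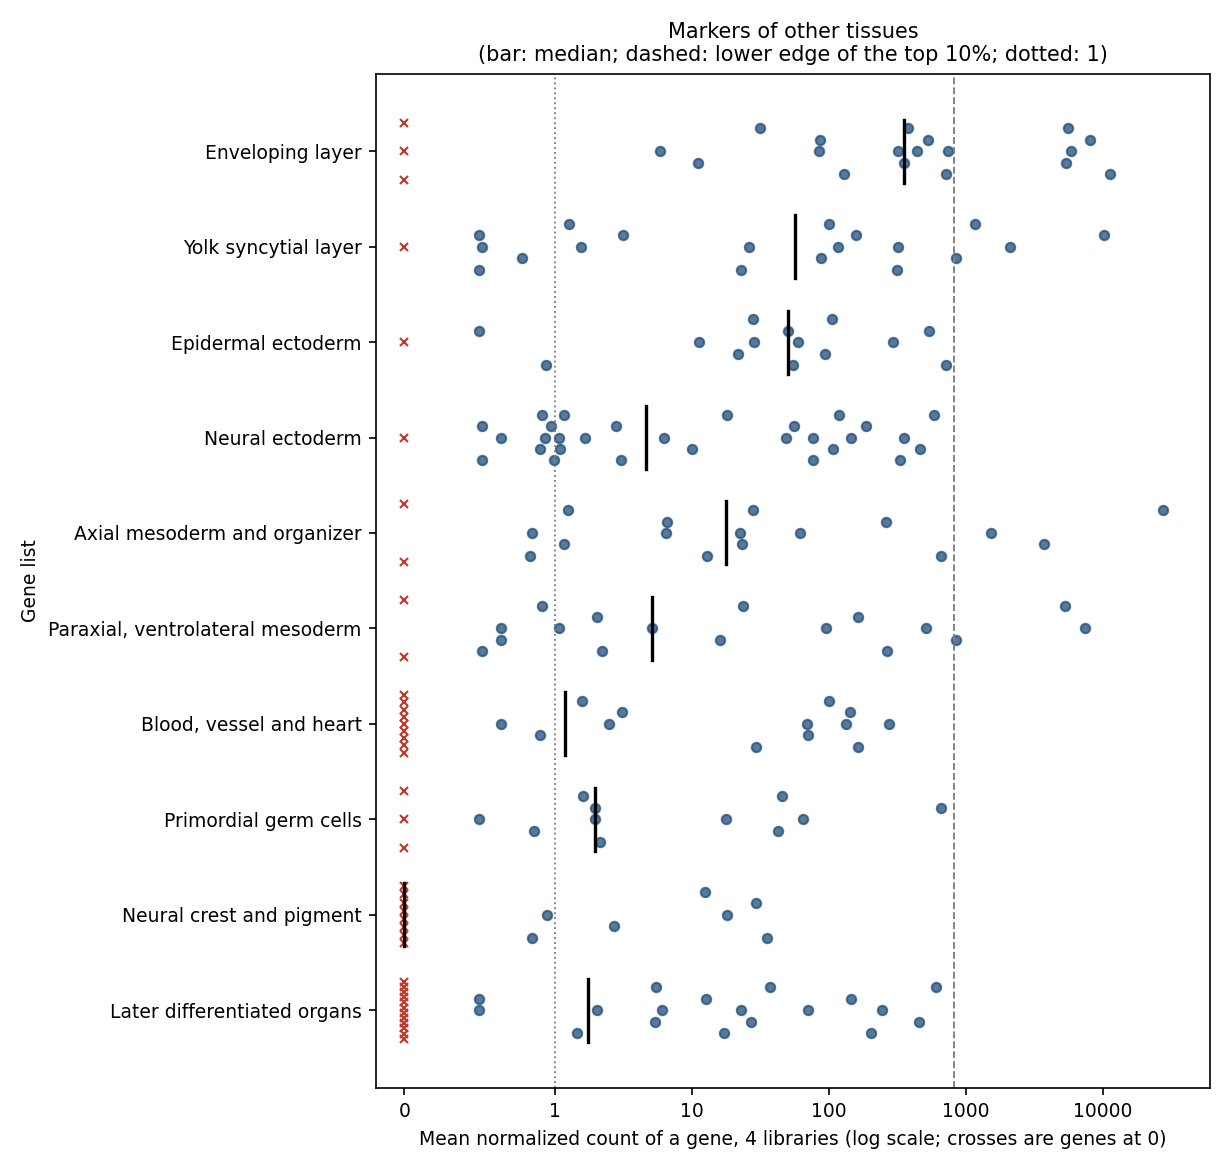
Mean normalized count over the 4 control libraries (horizontal axis, log scale) of each gene of 10 marker lists of other tissues, with crosses for the 42 entries at 0 and a bar at the median of each list. The enveloping layer has 5 genes beyond the dashed line at 817, the lower edge of the top 10%, and the neural crest list has its median at 0.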

How the data were processed

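Single DFC clusters of Tg(sox17:GFP) embryos were dissected, and the authors made cDNA with the SMART-Seq v4 kit and sequenced single-end reads. Per the labels and the study's methods, reads were aligned with STAR to GRCz10, counted per Ensembl gene with featureCounts and normalized with DESeq2; versions and use of strand are not given in the sources used here. The deposited table names its columns TPM, but each value is a whole number of reads divided by a size factor of its library (100% of values above 0 in each control column, within 0.001 of a whole read), so the authors' values were used as a normalized count signal per gene, and reads were recovered from it. The table also holds the authors' log2 fold changes and adjusted p-values for the knockdowns, which were not used.

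The 4 control columns were found by their labels. Genes were ranked by mean normalized count; detected means a mean of at least 1, and the top 10% is taken among detected genes. Ranking per kilobase had been planned, but no transcript or protein lengths were at hand, so no length was divided out and no sequence is shown. Names came from the table for 18446 genes and from a reference list of Ensembl IDs for 8398, and 5109 had none. Of 773 list entries, 730 matched a gene (702 different genes), 34 did not, 7 matched several and 2 repeated a gene. The members and lists were chosen with earlier results of these data known. Named were the 25 and the 10 genes with the most reads, all regulators, the highest 3 and lowest 2 genes of each list and other-tissue genes at 0; some of these are not reported here, and further genes were picked for their known role after values were seen. Overlapping, antisense or near-identical genes may share reads. Alternatives were another minimum level, the median of libraries, another call of absence, leaving out mitochondrially encoded protein genes and leaving out each library. The comparison with counting noise was also made at a higher minimum of reads. Scripts ran in Python 3.11.15 with pandas 2.3.3, scipy 1.17.1, numpy 2.4.6 and, for plots, matplotlib 3.10.9. The recovery of reads and the comparison with counting noise were tested on simulated data.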

Additional observations from a re-analysis of the deposited data

Results flagged for a closer look

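Among 206 genes of the text with a mean of at least 50, 8 had a library that stood apart from the other 3 by Dixon's test. Chance alone gives about 1 in 20, but only for genes not picked by their spread. mmp9 was named in the text because it varied between clusters, so the count of 8 cannot be set against that rate. In replicate 1, mmp9 had 1425 normalized counts while replicates 2 to 4 had 1.53, 2.25 and 4.74. The other 7 gaps were small beside the level of the gene. In replicate 1, mns1 had 2623 normalized counts, sfrp1a 1625, prickle1b 1871, lef1 330.3 and hhip 512, each above the other 3 libraries. In replicate 2, cfap298 had 3377, below the rest, and notch1a 3911, above the rest. No cause was tested for any of them.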

How the results depend on the processing

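The 4487894 to 6148871 reads counted to genes per library limited what was called absent. By the paper, more reads than these were sequenced per sample. Squared differences between libraries were 1.66 to 5.54 times counting noise, and 1.87 to 8.30 times for genes with at least 200 reads in a pair. Leaving out 1 control library gave 15338 to 15398 detected genes (15285 with all 4), 50 to 51 cilia genes, 30 to 32 signaling genes and 14 to 15 other-tissue genes in the top 10%, 42 to 49 other-tissue genes at 0, and a share of 18.5 to 18.6% for the 10 and 35.1 to 35.3% for the 100 most abundant genes; the 25 most abundant genes stayed the same 25. Without a minimum level the top 10% is drawn from all genes of the table, and held 82 cilia genes (51 with the minimum), 60 signaling genes (30) and 28 other-tissue genes (15), whereas a minimum mean of 10 left 39, 28 and 13. Calling a gene absent at a mean under 1 or under 10 in place of 0 reads gave 70 and 102 other-tissue genes in place of 42. Without the 13 mitochondrially encoded protein genes, the 10 most abundant genes held 17.6% and the 100 most abundant 32.9% of counts. The unnamed genes among the first 10 stayed in, and whether they are mitochondrial was not tested. With a minimum mean of 10, 11853 genes were detected, 18401 had any read, and 13598 had at least 1 normalized count in each library. Ranking per length was not run, since no lengths were at hand, so the order of genes by molecules is unknown. No paired analysis was possible because only 1 group was used and no groups were compared.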

Other observations

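Gene families, defined by their symbols after the values had been seen, were in several cases led by 1 or 2 genes. Of 28 Sox genes, 18 were detected, against 54.2% of all genes with a name, and sox32 and sox17 together held 88.9% of the family's normalized counts. foxj1a held 65.8% of those of 59 forkhead genes, and foxd5 and foxj1a together 84.9%. Of these 59 genes, 21 had no read, against 35.7% of all genes with a name. tbxta held 81.8% of the counts of 20 T-box genes. cdh2 and cdh6 held 89.8% of the counts of 26 cadherin genes, and id1, an inhibitor of basic helix-loop-helix factors, held 85.3% of those of 5 Id genes. Of 87 cytosolic ribosomal protein genes, 83 were in the top 10%, 85 were detected and 1 had no read, and the leading one, rps20, held 2.96% of their counts. Among all genes with a name, 5.65% were in the top 10%, 54.2% were detected and 35.7% had no read. These families are sums of reads, so a long transcript weighs more.

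Chromatin and RNA-binding proteins were abundant as well. The 13 high mobility group genes held 1.93 to 1.96% of all counts, led by hmga1a, with 9 in the top 10%. The 22 hnRNP genes held 1.32 to 1.39%, led by hnrnpa0l (29162 ± 317), with 15 in the top 10%. Of all genes with a name, 5.65% were in the top 10%. Among further genes of high rank were actb2, a cytoplasmic actin (17117 ± 778), sp5l, a Wnt-responsive zinc finger factor (9932 ± 287), slc26a4, an anion exchanger (9928 ± 436), id1 (8574 ± 338) and foxd5 (6526 ± 70.4).

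A few genes differed widely between clusters. mmp9, a matrix metalloprotease known from leukocytes and wounded tissue, had 1425 normalized counts in replicate 1, whereas replicates 2, 3 and 4 had 1.53, 2.25 and 4.74. nccrp1 had 667 and 616 in replicates 1 and 2, 0 in replicate 3 and 4.74 in replicate 4. These were the only 2 genes with at least 100 normalized counts in one library and at most 5 in another. tspan15, a tetraspanin at rank 47, had 13940.4, 15079, 4972 and 10975, lowest in replicate 3, with a mean of 11241 ± 4524.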
